A study of Mus musculus with 12 samples.

Results

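The proteasome is the cell's main protease for ubiquitin-tagged proteins, and the genes described here encode its constitutive subunits, the factors that assemble it and the caps that regulate it. They were taken by symbol, as every row of the array with exactly 1 annotated symbol that starts with Psma, Psmb, Psmc, Psmd, Psme, Psmf or Psmg followed by a digit, without pseudogenes and without the interferon-inducible subunits Psmb8, Psmb9 and Psmb10. This gave 47 of the 19938 genes named on the array, with 53 of its 35556 rows, a row being a probe set with 1 log2 expression value per array. For the 5 genes with several rows, the row of highest mean was used.

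RNA came from Min6, a line of insulin-making mouse insulinoma cells used to model the pancreatic beta cell, after 3 consecutive culture periods of 5 days. In the return condition (RC) the cells had 5 days in serum, then 5 serum-free days at 5% oxygen in a medium with apo-transferrin (100 µg/mL), progesterone (20 nM), putrescine (100 µM) and selenite (30 nM), and finally 5 days back in serum at 20% oxygen. In defined conditions (DC) the last 10 days were spent in that serum-free, supplemented medium at 5% oxygen, and in classic conditions (CC) the cells stayed in 15% serum at 20% oxygen. Each condition had 4 arrays (12 in all), quadruplicates of a single experiment on 1 cell line, so a p-value speaks only of the spread among them, which may be technical. Serum, oxygen and the supplements changed together, and RC cultures had 5 serum-free days where DC cultures had 10, so no difference can be assigned to any of these alone.

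The proteasome core, the 20S particle, is a barrel of stacked rings. The outer rings are made of alpha subunits (Psma genes) and gate the entrance, and the inner rings are made of beta subunits (Psmb genes), a few of which cut peptide bonds. The 19S cap recognises ubiquitin chains, removes them and threads the unfolded substrate into the barrel with a ring of ATPases (Psmc genes) and a set of non-ATPase subunits (Psmd genes). Psmg genes and a few Psmd genes encode chaperones that build these particles and leave them, and Psme and Psmf1 encode activators and an inhibitor that bind the ends of the barrel. When proteasome activity is short, the transcription factor Nfe2l1 raises subunit genes together, through antioxidant response elements in their promoters. Beta cells make and fold large amounts of proinsulin and rely on the proteasome to clear misfolded chains drawn out of the endoplasmic reticulum.

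The symbols were checked against what the genes encode. Of the 47, 45 encode parts, chaperones or regulators of the proteasome. The other 2 are not proteasome parts themselves: Psmc3ip encodes a partner of the meiotic recombinases, and Psme3ip1 a protein that binds the activator subunit Psme3. Psma8 and Psmb11 encode subunits known from the testis and the thymus cortex. Psma8 averaged 6.62 in RC, 6.69 in DC and 6.59 in CC, below 7.99, the median of all values on the arrays, and Psmb11 averaged 8.12, 8.17 and 7.98 in the same order, close to it. No detection call was used, so neither value shows that the gene was expressed. The labelled cell type carried its markers, since 14 of 15 measured beta cell genes had means above 7.99 (Slc2a2, the glucose transporter, was the exception), against 3 of 7 fibroblast, 2 of 5 immune and 0 of 5 endothelial markers. Of the beta cell genes 4 of 15 differed in DC against CC (Pax6, Nkx2-2 and Slc30a8 higher, Chgb lower in DC), 3 in RC against DC and 0 in RC against CC. Of all rows 6.64%, 2.63% and 0.796% differed in the same 3 comparisons. Among the 20% of rows with the highest means the shares were 15.7%, 5.68% and 2.11%. None of the markers of other cells differed between conditions in limma, a linear model with a moderated spread, at an adjusted p of 0.05. The median of the fibroblast markers lay between 7.61 and 7.99 on the RC arrays, 7.45 and 7.86 on the DC arrays and 7.36 and 7.65 on the CC arrays, and its part in the results was not tested.

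Nfe2l1 binding elements share the core TGACNNNGC, where N is any base. RefSeq promoters of assembly GRCm38.p6, from 250 bases before to 50 bases after a gene's start, were matched for 39 of the 47 genes, which have 43 such windows. The core was found, on either strand, in 6 of the 43 windows (14%), against 12.4% of all 32851 promoter windows of this length. It did not overlap the other motifs searched in the stretches printed here. Those motifs were CCAAT, the box bound by the factor NF-Y (34.9% of windows, against 37.4% of all), ACGTG, the core of hypoxia response elements (18.6%, against 19.6%), and GAANNTTC, a heat shock unit (4.65%, against 7.86%), all on both strands. A match is a run of letters and not a measured binding site. The stretches of 100 bases that hold the core are shown for 5 of the 6 genes because Nfe2l1 is known to act through this core. The capitals mark the core, which lies on the reverse strand in Psmd12 and Psmc6. They belong to Psmb5 (chr14:54617996-54618095, minus strand), Psmb6 (chr11:70525257-70525356, plus strand), Psmc6 (chr14:45329574-45329673, plus strand), Psmd12 (chr11:107479278-107479377, plus strand) and Psmd9 (chr5:123228090-123228189, plus strand), all upstream of the gene's start.
Psmb5: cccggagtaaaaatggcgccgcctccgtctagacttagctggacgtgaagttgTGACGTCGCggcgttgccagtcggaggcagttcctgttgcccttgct
Psmb6: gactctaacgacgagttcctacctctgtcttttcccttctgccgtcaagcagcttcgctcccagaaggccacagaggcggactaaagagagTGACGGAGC
Psmc6: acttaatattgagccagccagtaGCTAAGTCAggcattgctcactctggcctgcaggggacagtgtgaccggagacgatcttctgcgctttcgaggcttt
Psmd12: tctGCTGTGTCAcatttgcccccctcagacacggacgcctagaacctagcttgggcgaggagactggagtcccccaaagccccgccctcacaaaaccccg
Psmd9: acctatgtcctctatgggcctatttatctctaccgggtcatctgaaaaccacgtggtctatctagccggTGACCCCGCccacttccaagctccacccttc
In Psmb6 the core ends at the base before the start, and in Psmb5, Psmd9 and Psmd12 it begins 47, 31 and 247 bases before it. In the sixth gene, Psme4, the core did not lie whole within either stretch taken, 250 to 151 or 100 to 1 bases before the start.

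The arrays set the frame for every value below. Array medians ranged from 7.92 to 8.05 and interquartile ranges from 2.42 to 2.75 on the log2 scale. RC 3 stood apart, with a mean correlation of 0.976 with the other RC arrays, against 0.989 to 0.990 for those arrays, so calls that change without it are given both ways. The CC arrays fell into pairs, CC 1 with CC 2 and CC 3 with CC 4.

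Proteasome genes were high together or low together on an array. Of the 47 genes, 44 lay above their own RC mean on RC 1, 8 on RC 2, 19 on RC 3 and 32 on RC 4. The counts were 43 on DC 1, 5 on DC 2, 32 on DC 3 and 4 on DC 4, and in CC they were 44 on CC 1, 41 on CC 2, 5 on CC 3 and 5 on CC 4. Arrays of DC and of CC therefore ranged from nearly all genes above the condition mean to nearly none. In RC the range was narrower, from 44 genes to 8. Over all rows of the table the share above the own mean stayed between 42.5% and 57% on each array, and over the 20% of rows with the highest means, which hold 27 of the 47 genes, between 27.4% and 77.1%.

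The spread of the whole array differed as well. In each condition the 2 arrays with the wider interquartile ranges had the 2 higher medians of proteasome genes. In RC these medians were 9.96 on RC 1 and 9.91 on RC 4, above 9.82 on RC 2 and 9.78 on RC 3. In DC they were 9.81 on DC 1 and 9.77 on DC 3, above 9.64 on DC 2 and 9.60 on DC 4. The CC medians were 10.02 on CC 1 and 9.96 on CC 2, above 9.70 on CC 3 and 9.63 on CC 4. Quantile normalization gives all arrays the same spread. After it, the genes above their condition mean numbered 33 on RC 1, 8 on RC 2, 29 on RC 3 and 23 on RC 4. They numbered 35 on DC 1, 12 on DC 2, 25 on DC 3 and 7 on DC 4, and 41 on CC 1, 39 on CC 2, 8 on CC 3 and 5 on CC 4. RC 3 then had more genes above the mean than RC 4, while the order of wide and narrow arrays stayed in DC and CC.

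**Figure D1:**
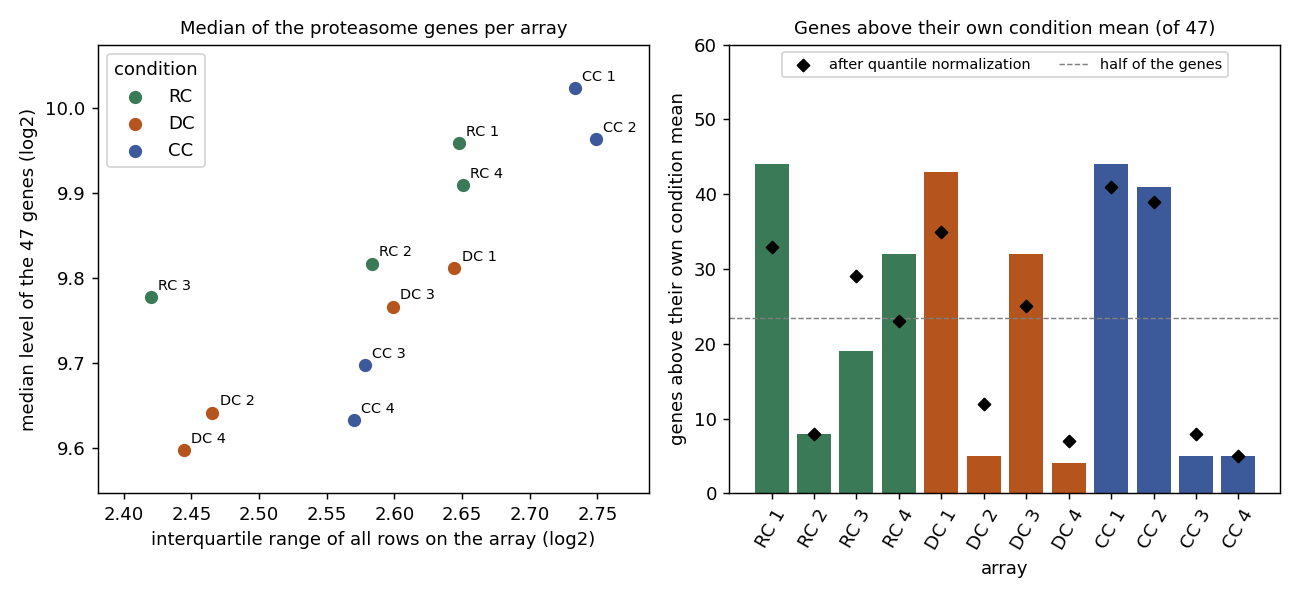
Left, the median log2 level of the 47 proteasome genes on each array against the interquartile range of all rows of that array (log2). Right, the number of the 47 genes above their own condition mean on each array (bars) and after quantile normalization (diamonds), with a dashed line at 50% of the genes. RC 1, DC 1, CC 1 and CC 2 have 41 to 44 genes above the mean, and DC 2, DC 4, CC 3 and CC 4 have 4 or 5.

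Averaged by condition, these medians were 9.87 ± 0.08 in RC, 9.70 ± 0.10 in DC and 9.83 ± 0.19 in CC (SD, n = 4 each), so the 3 means spanned less than the SD of the CC arrays. In 46 of the 47 genes the widest range within a condition exceeded the span of the 3 condition means, with medians of 0.42 and 0.16 on the log2 scale. This was so for 92.9% of all rows as well, and the exception among the 47 was Psmc3ip. In CC the pair CC 1 and CC 2 lay above CC 3 and CC 4 with no overlap in 40 of the 47 genes, against 26.8% of all rows and 53.1% of the 20% with the highest means. The median gap between the pairs was 0.25, and the widest was 0.49, in Psmd5.

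**Figure D2:**
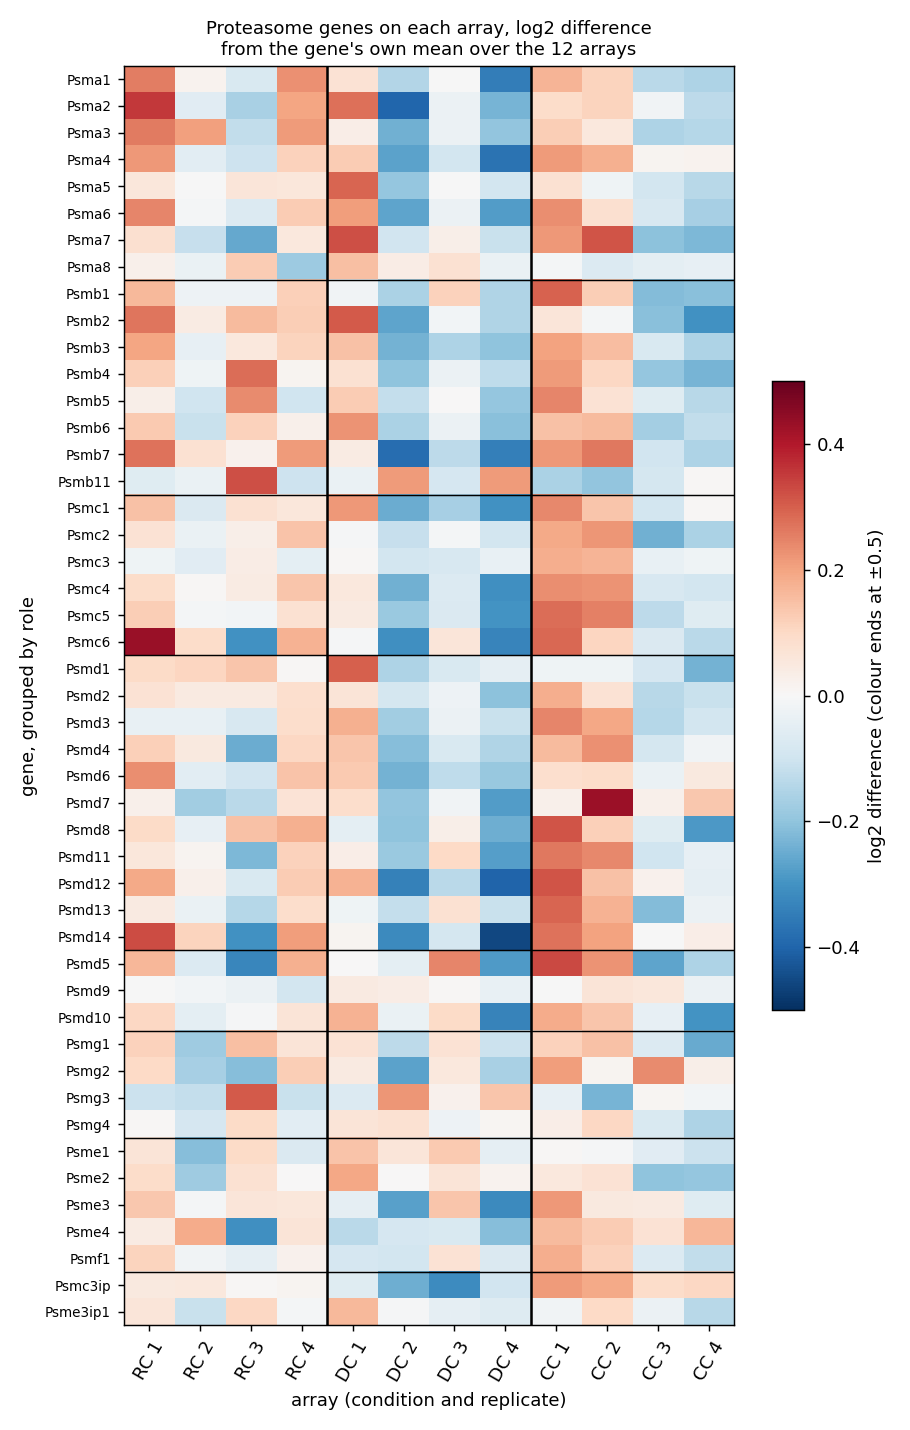
Log2 difference of each of the 47 genes (down the page, in blocks by role) from its own mean over the 12 arrays, for the RC, DC and CC arrays (left to right); red is above the mean, blue below, and the colour ends at ±0.5. Columns of one colour, such as CC 1 and CC 2 in red and DC 2 and DC 4 in blue, run through most of the blocks.

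Against this spread, few of the genes differed between conditions. In DC against CC, 1 of the 47 genes passed the test across all rows (limma, Benjamini-Hochberg adjusted p under 0.05), against a background of 6.64% of all rows, and it was Psmc3ip, lower in DC. No gene passed in RC against DC, where 2.63% of all rows did, nor in RC against CC, where 0.796% did. At an unadjusted p under 0.05, 7 genes were lower and 0 higher in DC than in CC (background 20.6% of rows), 4 were higher and 0 lower in RC than in DC (11.8%), and 1 was higher and 0 lower in RC than in CC (9.06%). The smallest adjusted p was 0.153 in RC against DC (Psmc3ip) and 0.536 in RC against CC (Psmb2). Each of these shares of members is below the share of all rows. With 47 genes the counts are small, so they are no result about the members. As bulk RNA was measured, a smaller share of cells carrying an RNA and less of it per cell cannot be told apart.

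Without RC 3, which enters the estimate of the spread in every comparison, 2 genes were lower in DC than in CC (Psmc3ip and Psme4), against 10.5% of rows. In that fit 3 genes rose in RC against DC (Psma3, Psmd14 and Psme4), against 8.13% of rows, and 0 passed in RC against CC, against 0.875% of rows. With the interquartile range of each array as a covariate, 1 gene (Psmc3ip) fell in DC against CC, where 6.91% of rows passed. The covariate gave 3 higher genes in RC against DC (Psma3, Psmb7 and Psmd14; 4.89% of rows) and 1 in RC against CC (Psma3; 1.79% of rows).

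For each gene taken singly, the intervals give how large a difference the arrays could have missed at the deposited scaling. They take the 4 arrays of a condition as independent, which the CC pairs put in doubt. The 95% interval of the log2 difference stayed inside 1.5-fold in either direction for 46 of the 47 genes in DC against CC, 45 in RC against DC and 47 in RC against CC, and inside 2-fold for all 47 in each comparison. The genes whose interval passed 1.5-fold were Psmd14 in DC against CC, and Psmb7 and Psmd14 in RC against DC. Standard errors ran from 0.05 to 0.16, with a median of 0.10. The median difference over the 47 genes was -0.09 in DC against CC, where that of all rows was 0.04 and that of the 20% of rows with the highest means -0.06. It was 0.08 in RC against DC (all rows -0.01, highest rows 0.03) and 0.02 in RC against CC (all rows 0.03, highest rows -0.02). The DC against CC median was above zero with the interquartile range as a covariate (0.035), without DC 2, DC 4 and RC 3 (0.020) and without CC 1 and CC 2 (0.052), and it was -0.021 after quantile normalization, so its direction depends on the arrays and their scaling. With all arrays as deposited, 36 genes were below zero in DC against CC, 9 in RC against DC and 20 in RC against CC. The comparisons share arrays, so these counts are not independent of each other.

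**Figure D3:**
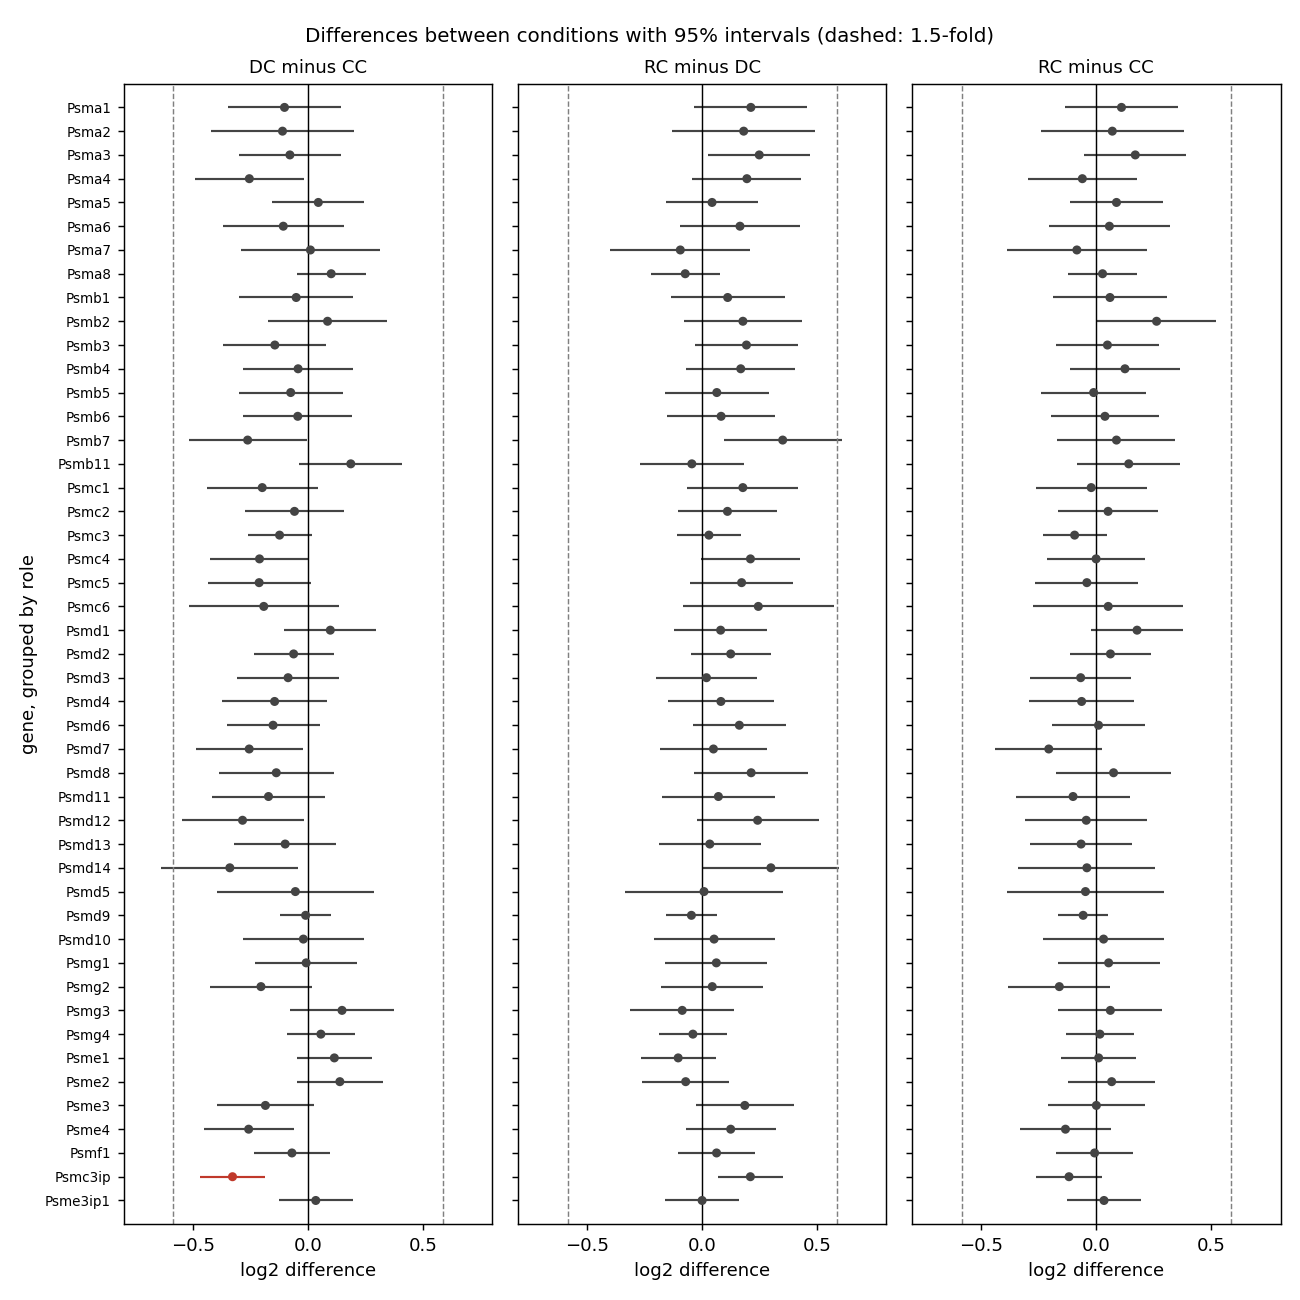
Log2 differences (points) with 95% intervals (lines) of the 47 genes for DC minus CC, RC minus DC and RC minus CC, with dashed lines at 1.5-fold; red marks an adjusted p under 0.05. Only Psmc3ip in DC minus CC is red, and the intervals of Psmd14 and Psmb7 are the ones that reach past a dashed line.

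The catalytic beta subunits did not pass in any comparison. Psmb5, which carries the chymotrypsin-like site, read 11.88, 11.75, 12.08 and 11.75 on the RC arrays, 11.97, 11.73, 11.85 and 11.65 on the DC arrays and 12.09, 11.92, 11.78 and 11.71 on the CC arrays. All 3 groups overlapped, and the log2 difference was -0.08 ± 0.10 in DC against CC (SE; 95% interval -0.30 to 0.15) and -0.01 ± 0.10 in RC against CC. Psmb6, the caspase-like subunit, read 10.49, 10.25, 10.47 and 10.39 in RC, 10.59, 10.20, 10.33 and 10.15 in DC and 10.51, 10.52, 10.19 and 10.24 in CC. Its groups overlapped too, and DC against CC gave -0.04 ± 0.11. These are 2 of the genes whose promoters are printed above. Psmd12, another of them and a cap subunit, moved further, with -0.28 ± 0.12 in DC against CC (limma adjusted p = 0.22). It gave 0.24 ± 0.12 in RC against DC (adjusted p = 0.50), so neither difference passed. Values of Psmc6, Psmd9 and Psme4, which also hold the core, follow below.

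Psmb7, the trypsin-like subunit, moved furthest of the 3. It read 10.60, 10.40, 10.35 and 10.54 in RC, 9.94 to 10.37 in DC and 10.17 to 10.59 in CC. The lowest RC array lay just below the highest DC array, and DC against CC overlapped widely. RC against DC gave 0.35 ± 0.12 (interval 0.09 to 0.61; limma adjusted p = 0.20), the largest difference among the 47 genes in that comparison, and DC against CC gave -0.26 ± 0.12 (adjusted p = 0.24). Psmb3, a structural subunit of the beta ring, had means of 12.06 in RC, 11.86 in DC and 12.01 in CC, with a difference of -0.14 ± 0.10 in DC against CC. Psmb2, another structural subunit, read 11.12 to 11.35 in RC, 10.82 to 11.39 in DC and 10.78 to 11.14 in CC. Its RC against CC difference, 0.26 ± 0.12 (adjusted p = 0.54), had the smallest p of the 47 genes there. Over the 8 beta ring genes, 0 passed in any comparison (1 in each at an unadjusted p under 0.05), and the median differences were -0.05 in DC against CC, 0.14 in RC against DC and 0.07 in RC against CC.

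In the alpha ring, 0 of 8 genes passed in any comparison (1, 1 and 0 at an unadjusted p under 0.05 in DC against CC, RC against DC and RC against CC), with medians of -0.09, 0.17 and 0.06 in the same 3 comparisons. Psma3 read 10.81, 10.75, 10.42 and 10.76 in RC, 10.58, 10.31, 10.52 and 10.35 in DC and 10.67, 10.60, 10.39 and 10.40 in CC. The RC arrays other than RC 3 lay above every DC and CC array, and RC 3 lay among them. RC against DC gave 0.25 ± 0.10 (adjusted p = 0.34), and without RC 3 it gave 0.34 (adjusted p = 0.039). Psma4 read 9.40 to 9.73 in RC, 9.14 to 9.64 in DC and 9.52 to 9.72 in CC, and DC against CC gave -0.25 ± 0.11 (adjusted p = 0.21). Psma1 averaged 10.66 in RC, 10.45 in DC and 10.55 in CC, and its RC against DC difference of 0.21 ± 0.11 did not pass.

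The ATPase ring of the 19S cap gave the same picture, with 0 of 6 genes past the test, adjusted or not, and medians of -0.20 in DC against CC, 0.17 in RC against DC and -0.01 in RC against CC. Psmc4 read 10.93 to 11.06 in RC, 10.61 to 10.97 in DC and 10.83 to 11.15 in CC. DC against CC gave -0.21 ± 0.10 (adjusted p = 0.25), RC against DC 0.21 ± 0.10 (adjusted p = 0.44) and RC against CC -0.00 ± 0.10. Psmc6 had the widest RC range of the ring, with 10.17, 9.83, 9.43 and 9.91, against 9.41 to 9.80 in DC and 9.60 to 10.02 in CC. Its differences stood at -0.19 ± 0.15 in DC against CC and 0.24 ± 0.15 in RC against DC, where it was 0.38 without RC 3 (adjusted p = 0.098).

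Among the 11 non-ATPase subunits of the cap 0 passed in any comparison (3, 1 and 0 at an unadjusted p under 0.05), with medians of -0.15, 0.08 and -0.04 in the same order. Psmd14, the deubiquitinase that removes ubiquitin chains from substrates entering the cap, read 11.15, 10.94, 10.52 and 11.03 in RC, 10.84, 10.51, 10.74 and 10.37 in DC and 11.10, 11.03, 10.83 and 10.86 in CC. The DC array DC 1 overlapped CC 3, and RC 3 lay within the DC arrays. DC against CC gave -0.34 ± 0.14 (interval -0.64 to -0.04; adjusted p = 0.19) and RC against DC 0.30 ± 0.14 (adjusted p = 0.42). Without RC 3 the RC against DC difference was 0.43 (adjusted p = 0.039). Psmd7, its inactive partner in the lid of the cap, read 9.50 to 9.74 in RC, 9.39 to 9.76 in DC and 9.70 to 10.10 in CC. Psmd7 was lower by 0.26 ± 0.11 in DC than in CC on the log2 scale, with an adjusted p of 0.21, and CC 2 was the array at 10.10.

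Psmd1 and Psmd2 are the large scaffold subunits of the cap base. Psmd1 read 11.49, 11.50, 11.53 and 11.40 in RC, 11.69, 11.24, 11.32 and 11.35 in DC and 11.38, 11.37, 11.31 and 11.16 in CC. Every RC array lay above every CC array, and DC 1 lay above both groups. Psmd1 and Psmc3ip were the 2 genes whose RC and CC arrays did not overlap, against 7.94% of rows, and RC against CC gave 0.18 ± 0.09 for Psmd1 (adjusted p = 0.64). Psmd2 read 11.67 to 11.70 in RC, 11.42 to 11.69 in DC and 11.48 to 11.80 in CC, with -0.06 ± 0.08 in DC against CC.

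No assembly chaperone passed in any comparison, and 0 had an unadjusted p under 0.05. Of the 3 chaperones of the cap, 0 passed, and their medians were -0.02 in DC against CC, 0.01 in RC against DC and -0.05 in RC against CC. Psmd9, whose promoter is printed above, read 8.32 to 8.41 in RC, 8.37 to 8.45 in DC and 8.38 to 8.48 in CC, and DC against CC gave -0.01 ± 0.05, with an interval of -0.12 to 0.10. Psmd5 had wide ranges within every condition, 8.74 to 9.24 in RC, 8.78 to 9.31 in DC and 8.80 to 9.39 in CC, and a DC against CC difference of -0.06 ± 0.16. Of the 4 chaperones of the core (Psmg genes), 0 passed, with medians of 0.02, 0.00 and 0.03. Psmg2 averaged 9.21 in RC, 9.16 in DC and 9.37 in CC (DC against CC -0.20 ± 0.10, adjusted p = 0.27), and its partner Psmg1 gave -0.01 ± 0.10.

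Among the 4 activator genes and the inhibitor Psmf1, 0 passed in any comparison, and 1 (Psme4) had an unadjusted p under 0.05, in DC against CC. Psme1 and Psme2 form the activator PA28, which is induced with the immunoproteasome by interferon. Psme1 read 9.37 to 9.67 in RC, 9.54 to 9.72 in DC and 9.47 to 9.59 in CC, and Psme2 9.40 to 9.67 in RC, 9.58 to 9.77 in DC and 9.38 to 9.65 in CC. Their DC against CC differences were 0.11 ± 0.07 and 0.14 ± 0.09, above zero where most of the 47 genes were below it, and neither passed. The interferon-inducible subunits did not pass either, with DC against CC at 0.11 ± 0.10 for Psmb8, 0.18 ± 0.09 for Psmb9 and 0.03 ± 0.07 for Psmb10.

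Psme4, the activator PA200, separated DC from CC. It read 11.31, 11.46, 10.97 and 11.34 in RC, 11.14, 11.19, 11.20 and 11.06 in DC, and 11.43, 11.40, 11.34 and 11.44 in CC. Every DC array lay below every CC array, and among the RC arrays RC 3 lay below all DC arrays and the others above them. Psme4 and Psmc3ip were the 2 of 47 genes whose DC and CC arrays did not overlap, against 15.3% of all rows. The log2 difference of Psme4 was -0.26 ± 0.09 (0.84-fold; interval -0.45 to -0.06), and its limma adjusted p was 0.127. Without RC 3 the adjusted p was 0.011 in DC against CC, and RC against DC gave 0.22 (adjusted p = 0.040).

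The single call among the 47 genes fell on Psmc3ip, which is no proteasome part. It read 8.42, 8.42, 8.37 and 8.38 in RC, 8.31, 8.12, 8.05 and 8.27 in DC and 8.58, 8.56, 8.46 and 8.47 in CC. The 3 conditions did not overlap, with DC lowest, RC between and CC highest, and it was the 1 gene without overlap in RC against DC, where 6.29% of rows had none. DC against CC gave -0.33 ± 0.07 (0.80-fold; interval -0.47 to -0.19; limma adjusted p = 0.0086). RC against DC gave 0.21 ± 0.07 (adjusted p = 0.15) and RC against CC -0.12 ± 0.07 (adjusted p = 0.66). The call held under 24 of 25 other settings and was lost without the pair CC 1 and CC 2 (-0.28, adjusted p = 0.14). Psme3ip1, the other gene of this kind, gave 0.03 ± 0.07 in DC against CC.

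**Figure D4:**
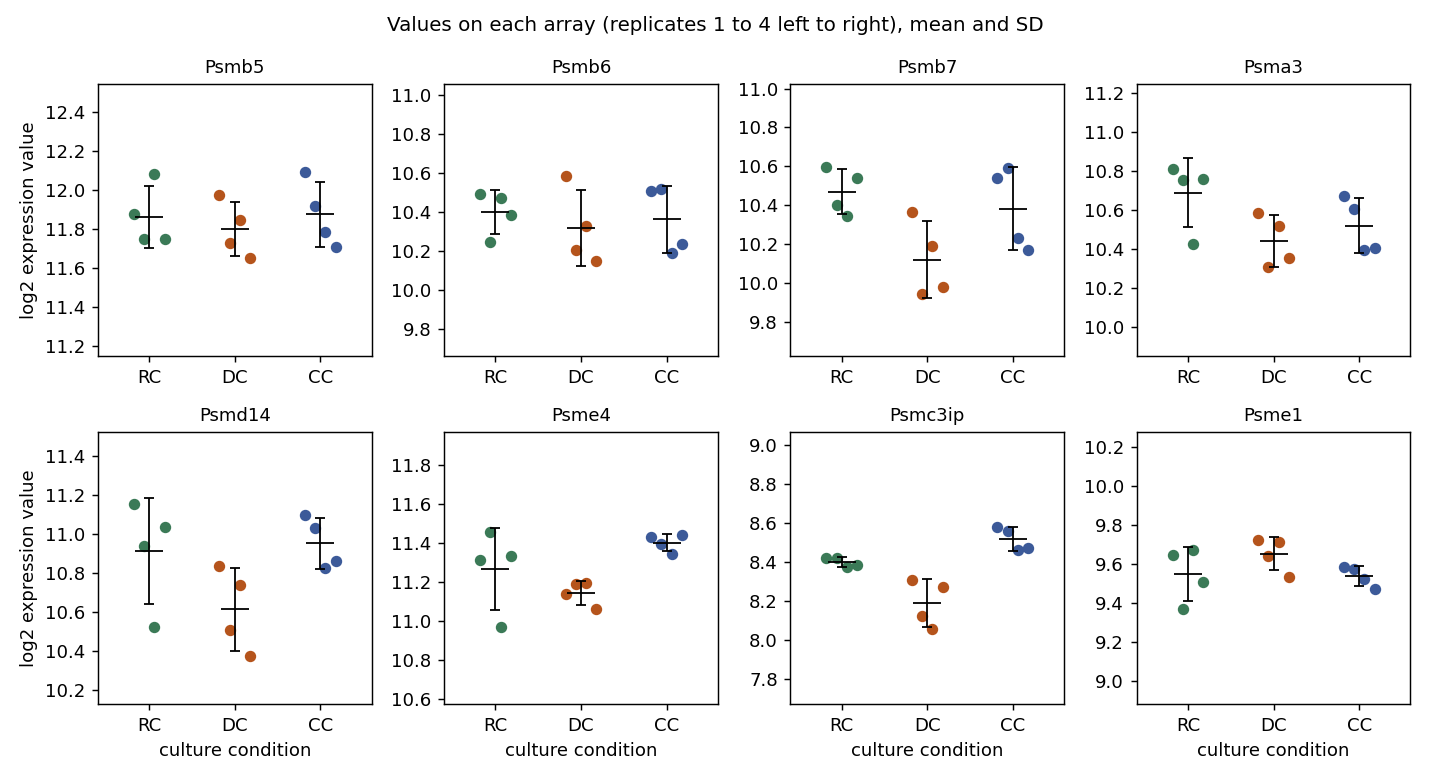
Log2 expression values of 8 genes on each array (points, replicates 1 to 4 from left to right) in RC, DC and CC, with the mean and SD (lines); each panel spans the same log2 range at its own level. Psmc3ip has no overlap between conditions, Psme4 none between DC and CC, and the point far below its group in the RC columns of Psma3, Psmd14 and Psme4 is RC 3.

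The other rows of Psma3 (3 rows in all) and of Psma5, Psmb3, Psmc1 and Psmd2 (2 each) held 0 calls in any comparison. The 95% intervals of the other Psmc1 row passed 1.5-fold in DC against CC (-0.63 to 0.03) and in RC against DC (-0.02 to 0.63). Directions differed between the rows of Psma5 in DC against CC (-0.06 and 0.04) and of Psmc1 in RC against CC (-0.02 and 0.01), differences smaller than their errors.

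Beside the subunits stood a list of 39 genes of proteasome assembly, its transcriptional control, ubiquitin shuttling and substrate unfolding, of which 30 were measured and 9 were not analysed here. In DC against CC 2 fell and 0 rose, with a median of -0.07, and 6 had an unadjusted p under 0.05. These shares of the list are near those of all rows, 6.64% and 20.6%, so the counts are no result about the list. The genes called were Faf2 and Nploc4. Faf2, an adaptor on the endoplasmic reticulum for p97, the ATPase that pulls ubiquitinated proteins out of membranes and complexes, read 10.06 to 10.29 in RC, 10.24, 9.92, 10.31 and 9.99 in DC and 10.49, 10.44, 10.52 and 10.51 in CC. Every DC and RC array lay below every CC array. The DC against CC difference was -0.38 ± 0.09 (limma adjusted p = 0.021), called in 16 of 25 other settings, and RC against CC gave -0.31 ± 0.09 (adjusted p = 0.18).

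Nploc4, a cofactor that binds p97 and ubiquitin, read 11.51 to 11.65 in RC, 11.52, 11.47, 11.47 and 11.39 in DC and 11.81, 11.77, 11.67 and 11.63 in CC. The DC arrays lay below the CC arrays, by 0.26 ± 0.06 on average on the log2 scale (adjusted p = 0.024), a call kept in 18 of 25 other settings and lost without CC 1, CC 2, DC 2, DC 3 or DC 4. The call of Faf2 was lost without CC 1, CC 3, CC 4, DC 2 or DC 4, with differences of -0.38, -0.37, -0.37, -0.31 and -0.33. It was also lost without either CC pair (-0.40 and -0.35), under the interquartile range covariate (-0.28, adjusted p = 0.061) and without DC 2, DC 4 and RC 3 (-0.22, adjusted p = 0.088). The gene of p97 itself, Vcp, gave -0.11 ± 0.09 and did not pass, as did that of the partner of Nploc4, Ufd1 (-0.10 ± 0.07).

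In RC against DC and in RC against CC, 0 of the 30 genes passed, with medians of 0.07 and -0.00 and 4 and 2 genes at an unadjusted p under 0.05, where all rows gave 11.8% and 9.06%. Sem1, a small subunit of the 19S lid whose symbol the rule did not take, read 9.66, 9.41, 9.23 and 9.71 in RC, 9.0, 8.90, 8.98 and 8.67 in DC and 9.50, 9.68, 8.90 and 8.97 in CC. Every RC array lay above every DC array, and the CC pairs fell on either side of the gap. RC against DC gave 0.61 ± 0.17 (adjusted p = 0.097), past the threshold in 7 of 25 other settings, among them without RC 3 (0.71, adjusted p = 0.030). Zfand2b, an adaptor that carries proteins to the proteasome, followed with -0.15 ± 0.06. Pomp, the chaperone that matures the core particle, gave 0.25 ± 0.13 in RC against DC and -0.15 ± 0.13 in DC against CC, neither past the test.

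The gene of the regulator Nfe2l1 did not pass in any comparison. It read 10.41, 10.47, 10.37 and 10.54 in RC, 10.58, 10.63, 10.85 and 10.34 in DC and 10.51, 10.57, 10.47 and 10.52 in CC. DC 3 was the highest array and DC 4 the lowest, so the DC arrays spanned the values of both other conditions. DC against CC gave 0.09 ± 0.09 and RC against DC -0.15 ± 0.09 (adjusted p = 0.61). Nfe2l2, its relative that answers oxidative stress, read 9.29 to 9.63 in RC, 9.30 to 9.69 in DC and 9.66 to 9.75 in CC, and every RC array lay below every CC array. Its differences were -0.25 ± 0.09 in DC against CC (adjusted p = 0.16) and -0.23 ± 0.09 in RC against CC (adjusted p = 0.46). Among the 25 other settings, the DC against CC difference passed only with array weights (-0.31, adjusted p = 0.014) and without DC 1 (-0.33, adjusted p = 0.033). Of all rows 13.6% and 7.68% passed in these settings, against 6.64% in the main fit.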

How the data were processed

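Total RNA of 12 Min6 samples, 4 per condition, had been labelled with biotin as cDNA and hybridised to GeneChip whole-transcript arrays, per the labels' protocols. The authors deposited 1 log2 expression value per probe set and array. Their range, 3.69 to 14.5, showed the log2 scale. Software and normalization were not given in the sources used here. No detection calls or scan dates were used, and precision is limited by how many arrays there are. Of the 35556 rows, 21789 have 1 gene symbol, 1621 several and 12146 none in the platform annotation supplied, and 1 row that names Psme2 together with a relative was left out.

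All rows of all 12 arrays were fitted with limma 3.58.1 (lmFit, contrasts.fit, eBayes) in R 4.3.3, with 1 mean per condition and 9 residual degrees of freedom. Tests are two-sided, with Benjamini-Hochberg adjustment over the 35556 rows and a threshold of 0.05. Errors of differences are moderated standard errors. The fit was tested on simulated data. Members and lists were chosen with earlier results of these data known. Genes named with values were the catalytic subunits, Psme1 and Psme2, the immunoproteasome subunits, Nfe2l1 and Pomp, the 5 members with the smallest p per comparison, the member with the largest change and that with the highest mean in each class, and from the pathway list up to 4 called genes or the 2 with the smallest p. Vcp, Ufd1, Psmd12, Psma8, Psmb11 and genes picked out by a single array were added after their values were seen.

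Alternatives changed the normalization between arrays, array weights, the spread of the arrays as a covariate, the arrays and rows fitted, the variance prior, the row per gene and a block for the replicate number.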

Additional observations from a re-analysis of the deposited data

Results flagged for a closer look

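Within each condition, a gene was picked out where its highest or lowest array lay away from the nearest other array by a larger share of the group's whole range than Dixon's critical value for 4 samples allows at a confidence level of 95%. This met 5 of 150 groups looked at, 141 of them groups of the 47 genes, and chance gives about 1 in 20. Psma3 in RC read 10.42 on RC 3, with the other RC arrays between 10.75 and 10.81. Psma5 in RC read 8.95 on RC 2, with the others between 9.01 and 9.02. Psmb11 in RC read 8.41 on RC 3, with the others between 7.99 and 8.06, and Psmg3 in RC read 8.21 on RC 3, with the others at 7.78 to 7.79. Psmf1 in DC read 10.47 on DC 3, with the others between 10.30 and 10.32. RC 3 was the array in 3 of the 5.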

How the results depend on the processing

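Each count and median was recomputed under 25 other settings. In DC against CC the number of lower genes was 1, where 6.64% of all rows passed. It was 3 with array weights (Psmc3ip, Psmd14 and Psme4; 13.6% of rows) and 2 with only these groups fitted (7.33%). Without the pair CC 1 and CC 2 it was 0 (2.79%), and without the pair CC 3 and CC 4 it was 2 (Psmc3ip and Psmc5; 4.41%). Single arrays left out gave 1 to 2, where 4.36% to 10.5% of rows passed. There were 2 without DC 1 (Psmc3ip and Psmd12) and 2 without RC 3. The median difference in DC against CC was 0.052 without the pair CC 1 and CC 2, 0.035 with the interquartile range as a covariate, 0.020 without DC 2, DC 4 and RC 3, and -0.23 without the pair CC 3 and CC 4, against -0.09 with all arrays. In RC against DC, array weights gave 10 higher genes and 1 lower (Psmg3), where 18.0% of all rows passed. The interquartile range as a covariate gave 3 higher (4.89% of rows). Single arrays left out gave 0 to 3 (3 without RC 3), where 1.47% to 8.13% of rows passed. In RC against CC, array weights gave 2 higher genes (Psma3 and Psmb2, where 7.93% of all rows passed) and the covariate 1 (1.79%). With single arrays left out the medians ran from -0.14 to -0.02 in DC against CC, 0.05 to 0.14 in RC against DC and -0.03 to 0.05 in RC against CC. The replicate block left 1 lower gene (Psmc3ip) in DC against CC, where 5.21% of rows passed. It left 0 in RC against DC (1.94%) and 0 in RC against CC (0.191%). Whether the shared replicate numbers pair the samples cannot be decided from 4 arrays per condition. Same-numbered arrays were correlated in their differences from the condition means, not in the deposited values. Of these 12 correlations 5 exceeded 0.1, and 2 of 12 arrays correlated best with their own number. For number 1 the correlations were 0.18 in DC against CC, 0.32 in RC against DC and 0.47 in RC against CC. For the other numbers they ran from -0.36 to 0.38. Of 2472 values of the 33 genes named by rule, 2419 kept their side of the threshold (168 of them, uncalled, changed sign). Among the others 17 lost a call and 36 gained one, and 0 called values turned sign. With 4 arrays per condition and no detection calls, differences within the intervals given cannot be resolved.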
